A study of Mus musculus with 9 samples.

Results

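The replication-dependent histone genes encode the proteins that package newly copied DNA. They were taken as every gene whose symbol starts with Hist followed by a digit in the count table of cells given fatty acids against untreated cells. That table lists 64 such genes among 6213, through 67 of its 6936 transcripts, and all 64 are also listed in both other tables. By the class named in the symbol, 5 encode the linker histone H1, 16 encode H2A, 18 encode H2B, 12 encode H3 and 13 encode H4. Hist1 symbols account for 52 of them, Hist2 for 10, and Hist3 and Hist4 for 1 each. Hist1h1t, which encodes a testis linker histone, and Hist3h2a were listed only in the table of both fatty acid groups and are not members.

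Core histones H2A, H2B, H3 and H4 form the octamer around which DNA is wrapped, and H1 binds the DNA between octamers. Their genes lie in clusters, have no introns in most cases, and are transcribed mainly in S phase, when the transcription cofactor NPAT acts on them. Their mRNAs end in a stem-loop instead of a poly(A) tail. SLBP binds that stem-loop, guides the cut that makes the mRNA end, and ties the mRNA's decay to the end of DNA synthesis. In liver these mRNAs are known as markers of cells in S phase, as in regeneration. Replication-independent variants such as H2A.Z and H3.3 come from genes outside the clusters, with ordinary polyadenylated mRNAs.

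RNA was measured in AML12 cells, a hepatocyte line from a mouse carrying a human TGF-alpha transgene, in 3 groups of 3 samples. Control cells had no treatment. The PA/OA group was kept for 24 h with 0.2 mM PA together with 0.4 mM OA, taken here to be palmitic and oleic acid, which is used to model steatosis. The Ang(1-7) group had the same fatty acids, preceded by 100 nM of the heptapeptide angiotensin-(1-7) for 30 min. A solvent-only group and a peptide-only group are absent from the labels, so effects of the fatty acids and of any solvent they came in cannot be told apart. The labels name total RNA and do not say whether samples of a group were separate cultures, so p-values rest on a spread between samples that may be only technical. How RNA was selected for sequencing is not given in the sources used here, and with poly(A) selection the usual histone mRNAs, which lack a tail, would be counted only in part.

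The stem-loop was looked for with its consensus in the GENCODE M21 transcript matched to each gene, in the part after the stop codon, because it is the feature that defines these mRNAs. All 64 genes matched a transcript, 48 of those transcripts run at least 16 bases past the stop codon, and 44 of the 48 hold the stem-loop, starting 21 to 58 bases after the coding end. Among other protein-coding genes, 31 of 20914 (0.148%) hold it. The 4 members without a match were Hist1h1a, Hist1h2bc, Hist2h2be and Hist2h3b. Where the transcript model stops near the coding end, it could not be looked for. In the sequences, capitals mark the 6 base pairs of the stem and lower case the 4-base loop, written as DNA.
Stem-loop of 25 genes of H1, H2A, H2B and H3: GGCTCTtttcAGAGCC
Stem-loop of 5 genes of H2B and H3: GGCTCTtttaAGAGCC
Stem-loop of 7 genes of H4: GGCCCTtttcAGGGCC
Stem-loop of 2 genes of H4: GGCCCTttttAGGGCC
Stem-loop of 2 genes of H4: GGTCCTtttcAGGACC
No H4 gene shared its stem with another class, and the remaining 3 genes each had a form of their own. The forms differ in the loop and in the middle of the stem. The search fixed the outer GG and CC, the T and A of the stem next to the loop, and the T before the last loop base. It allowed only C or T in the middle of the left arm, only A or G in that of the right arm, and no G in the loop.

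Promoters were read from RefSeq windows on GRCm38.p6 of 250 bases before to 50 after the transcription start, which were given for 59 of the 64 genes. A promoter is shown for the member of lowest p in each class in PA/OA against control, with the 250 bases before the start and matches to 6 short motifs in capitals. The motifs, searched on both strands and none lying within another, were the TATA box TATAAA, the octamer ATTTGCAT, the CCAAT box CCAAT, the H1 box AAACACA, the H4 site core GGTCCG and the GC box GGGCGG.
Hist1h1d, chr13:23554782-23555031, plus strand: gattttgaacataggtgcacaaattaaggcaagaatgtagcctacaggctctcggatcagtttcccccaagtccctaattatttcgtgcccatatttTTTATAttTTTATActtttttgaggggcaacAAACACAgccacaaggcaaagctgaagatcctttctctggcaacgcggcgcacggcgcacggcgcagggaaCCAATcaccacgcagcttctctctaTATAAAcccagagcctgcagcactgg
Hist1h2ai, chr13:21716162-21716411, plus strand: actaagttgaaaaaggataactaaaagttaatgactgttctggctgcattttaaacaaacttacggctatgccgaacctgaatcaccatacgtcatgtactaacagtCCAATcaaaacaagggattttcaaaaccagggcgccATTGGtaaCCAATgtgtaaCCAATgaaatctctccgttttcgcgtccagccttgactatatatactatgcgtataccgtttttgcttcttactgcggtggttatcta
Hist2h2bb, chr3:96269450-96269699, plus strand: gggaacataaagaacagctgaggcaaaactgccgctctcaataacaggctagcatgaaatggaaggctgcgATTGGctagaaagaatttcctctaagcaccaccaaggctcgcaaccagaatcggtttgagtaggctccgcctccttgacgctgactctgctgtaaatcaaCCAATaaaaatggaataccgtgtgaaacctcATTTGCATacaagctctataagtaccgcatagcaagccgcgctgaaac
Hist1h3c, chr13:23745522-23745771, minus strand: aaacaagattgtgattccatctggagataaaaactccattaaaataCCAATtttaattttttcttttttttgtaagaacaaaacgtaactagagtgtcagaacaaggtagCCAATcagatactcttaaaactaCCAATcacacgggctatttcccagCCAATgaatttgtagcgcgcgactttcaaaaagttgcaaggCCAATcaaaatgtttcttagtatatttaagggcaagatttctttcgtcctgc
Hist1h4i, chr13:22041363-22041612, minus strand: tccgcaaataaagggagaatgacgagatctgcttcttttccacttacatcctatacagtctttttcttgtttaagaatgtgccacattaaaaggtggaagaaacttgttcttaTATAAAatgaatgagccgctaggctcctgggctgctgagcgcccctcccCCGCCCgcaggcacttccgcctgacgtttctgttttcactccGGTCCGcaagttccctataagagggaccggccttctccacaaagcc
CCAAT was in every promoter given for H1, H2A, H2B and H3 genes and in 3 of 12 H4 promoters, against 37.9% of all 27025 promoters. TATAAA was in 57.6% of the histone promoters and in 14.2% of all. GGTCCG was in 11 of 12 H4 promoters (8.39% of all), AAACACA in 4 of 5 H1 promoters (7.14%), and ATTTGCAT in 5 of 16 H2A and 6 of 16 H2B promoters (1.75%). GGGCGG was in 37.3% of the histone promoters and 35.9% of all. The promoter of Hist1h2ai is also that of Hist1h2bl, since the 2 genes start 228 bases apart on opposite strands. Such back-to-back pairs of an H2A and an H2B gene numbered 9, with 163 to 267 bases between the starts. A match is a string of letters and was not tested as a binding site.

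Listed counts came to 24578113 to 28529393 per library over the transcripts common to all 3 tables, of which histone genes took 473016 to 803497. Of the hepatocyte markers, 7 of 18 were listed beside the controls, and in the control and PA/OA libraries the keratin gene Krt18 stood at 9267 to 10172 CPM, which scales counts to the library total, and Alb, the albumin gene, at 3.14 to 11.9. Markers of cholangiocytes (4 listed, mostly Krt7 and Krt19) summed to 1993 to 2135 CPM in controls and 1568 to 1711 in PA/OA, and those of macrophages (3 listed, mostly Cd14) to 587 to 626 and 674 to 816. Ang(1-7) 2 stands apart from the other libraries in how it divides its counts among genes, and results that rest on it are given with and without it. Nervous system markers other than Mbp summed to 138 CPM in Ang(1-7) 2 and 76.4 in Ang(1-7) 3, with all 16 listed genes above 0, and to 2.07 to 3.19 in Ang(1-7) 1 and the PA/OA libraries, with 4 or 5 above 0. Their part in the histone values was not tested.

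The summed level of the 64 genes was lower in PA/OA than in control and lower again with Ang(1-7). Levels from here on are CPM scaled by the trimmed mean of M values over all 9 libraries. Controls 1 to 3 stood at 29710, 26360 and 29055 CPM, PA/OA at 25021, 21971 and 21370, and Ang(1-7) at 20304, 19366 and 17546. The 3 groups did not overlap, and their means were 28375 ± 1775 (SD, n = 3), 22787 ± 1958 and 19072 ± 1402. The PA/OA mean was 19.7% below control, and the Ang(1-7) mean was 32.8% below control and 16.3% below PA/OA. Without Ang(1-7) 2 those last values were 33.3% and 17.0%. As a plain share of counts, without scaling, histone genes took 2.61% to 2.94% in controls, 2.17% to 2.499% in PA/OA and 1.81% to 2.08% with Ang(1-7). In bulk RNA, fewer cells in S phase and less histone mRNA per cell cannot be told apart.

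**Figure D1:**
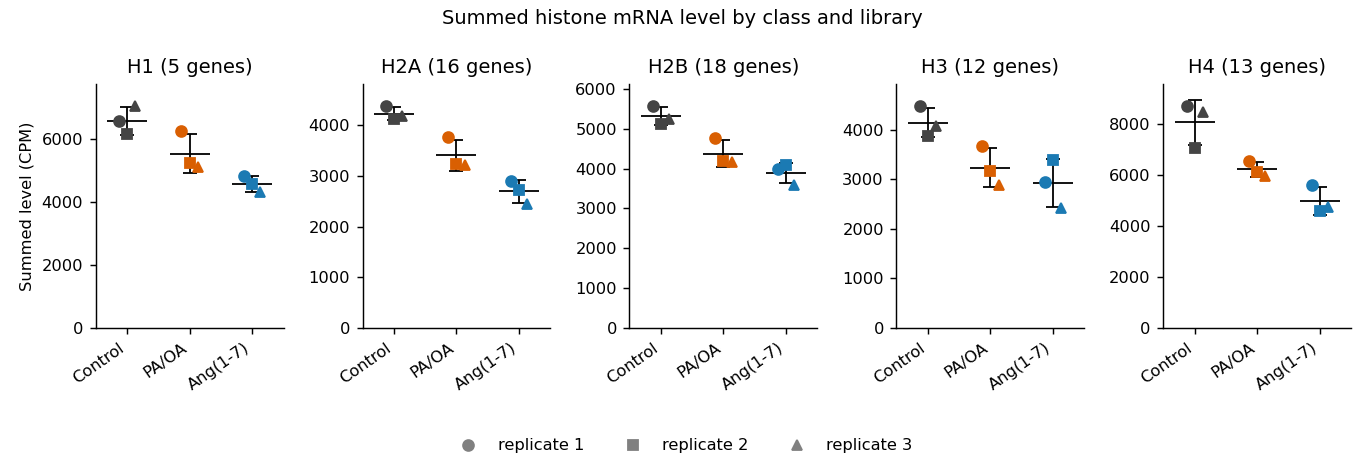
Summed level in CPM of the genes of each histone class in the 9 libraries, with 1 symbol per library and lines for the group mean ± SD. In H2A, H2B and H4 the 3 groups do not overlap, and in H3 Ang(1-7) 1 (2954) and Ang(1-7) 2 (3391) lie within the PA/OA range of 2878 to 3672.

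Every class mean was lower in PA/OA. The H4 mean was 23.01% below control (8709, 7067 and 8481 CPM against 6567, 6125 and 5985) and 38.3% below it with Ang(1-7) (5620.5, 4581 and 4763). H3 was 21.99% lower in PA/OA and H2A 19.4%, and in neither did a PA/OA library reach a control. H2B was 17.6% lower, also without overlap. H1 was 16.01% lower, and there PA/OA 1 (6246) lay above control 2 (6151). These orders of size between classes were not tested. The make-up of the pool by class moved little between the libraries other than Ang(1-7) 2: H4 gave 26.2% to 29.3% of histone counts and H1 22.1% to 24.96%.

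In PA/OA against control, 32 of the 64 genes fell and 0 rose, where 2.24% of all 6213 genes were called lower and 2.82% higher (edgeR's quasi-likelihood test, Benjamini-Hochberg adjusted p under 0.05). The median log2 change of the members was −0.36, a ratio of 0.778, beside 0.01 over all genes tested. The changes ran from −0.71 to 0.14, and 61 of 64 were below 0, as were 48.0% of all genes. In 39 genes each PA/OA library lay below each control, which held for 11.6% of all genes. By class, 12 of 13 H4, 7 of 12 H3, 6 of 16 H2A, 5 of 18 H2B and 2 of 5 H1 genes fell. DESeq2 called 45 (4.17% of all genes lower). The number called was 8 without control 1 (0.499% of all genes), 30 without control 2 (1.67%), 23 without control 3 (1.24%), 48 without PA/OA 1 (3.17%), 20 without PA/OA 2 (0.95%) and 8 without PA/OA 3 (0.644%). In all 6 of these fits 8 genes were called: Hist1h2ai, Hist1h3a, Hist1h3c, Hist1h4i, Hist1h4k, Hist1h4n, Hist2h2bb and Hist4h4. With offsets for transcript length and GC content 5 of these 8 were called, and Hist1h2ai, Hist1h4n and Hist2h2bb were not. A fit of all 9 libraries, in which the spread of the Ang(1-7) libraries enters, called 0 (0.0332% of all genes; 30 members and 9.91% of all genes at an unadjusted p under 0.05).

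**Figure D2:**
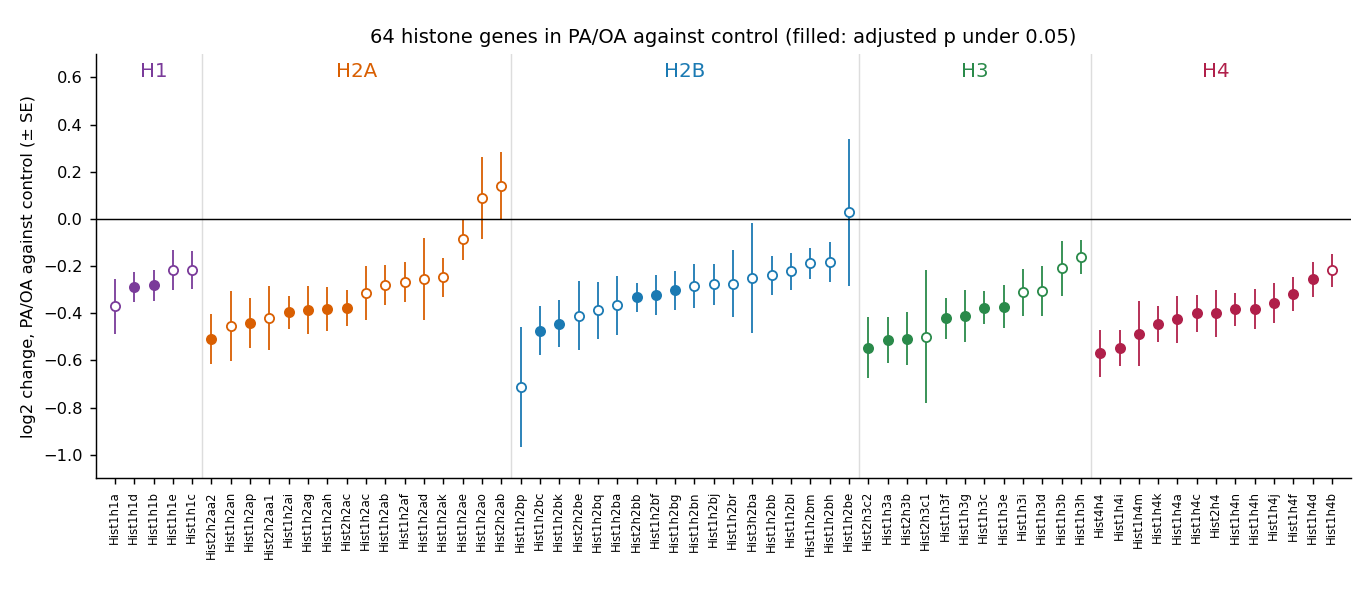
Log2 change in PA/OA against control of each of the 64 histone genes, grouped by class, with bars for the standard error and filled points for an adjusted p under 0.05. All but Hist1h2ao, Hist2h2ab and Hist1h2be lie below 0, and 12 of 13 H4 points are filled.

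Among H4 genes, Hist1h4i had the lowest p of all members. It measured 531, 439 and 536 CPM in controls 1 to 3, 339, 356 and 338 in PA/OA and 359, 217 and 263 with Ang(1-7). All 6 treated libraries lay below the lowest control. The log2 change in PA/OA was −0.55 ± 0.08 (SE, adjusted p = 0.000166), with an adjusted p of at most 0.00603 when a library was left out. Hist4h4, the single H4 gene outside the Hist1 and Hist2 clusters, measured 915, 638 and 871 CPM in controls, 599, 545 and 494 in PA/OA and 514, 374 and 449 with Ang(1-7). Every PA/OA library lay below every control, and its change of −0.57 ± 0.10 (adjusted p = 0.00177) was the largest in H4. Hist1h4h measured 956, 697 and 866 CPM in controls, 667, 649 and 622 in PA/OA and 576, 600.4 and 491 with Ang(1-7). PA/OA lay below control 2 by a small margin, and the change of −0.38 ± 0.08 (adjusted p = 0.0121) lost its call when control 1 or PA/OA 3 was left out (adjusted p up to 0.127) and with the length and GC offsets (−0.23, adjusted p = 0.0789). Hist1h4d measured 1263, 1186 and 1307 CPM in controls, 1203, 986 and 962 in PA/OA and 913, 1305 and 833 with Ang(1-7). PA/OA 1 reached the control range, and so did Ang(1-7) 2. Its change of −0.26 ± 0.07 (adjusted p = 0.0468) passed without PA/OA 1 and in no other of the 6 fits (adjusted p 0.0596 to 0.214), nor with the offsets (−0.21, adjusted p = 0.104). Hist1h4b was the H4 gene that did not pass.

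H3 is the core histone whose tail carries the methylation marks of active promoters and silent chromatin. Hist1h3c measured 629, 658 and 613 CPM in controls, 511, 511 and 444 in PA/OA and 501, 351 and 398 with Ang(1-7). The treated groups lay below every control, with a log2 change in PA/OA of −0.38 ± 0.07 (adjusted p = 0.00293, at most 0.027 without any 1 library). Hist1h3e measured 951, 805 and 810.0 CPM in controls, 781, 637 and 568 in PA/OA and 569, 875 and 502 with Ang(1-7). Ang(1-7) 2 was as high as the controls, while the other 2 were as low as the lowest PA/OA library. The change in PA/OA was −0.37 ± 0.09 (adjusted p = 0.0198), a call lost on leaving out control 1, PA/OA 2 or PA/OA 3 (0.0659 to 0.17). Hist2h3c2 measured 199, 144 and 215 CPM in controls, 151, 121 and 111 in PA/OA and 129, 206 and 93.3 with Ang(1-7). PA/OA 1 lay above control 2, so the groups overlap. The change of −0.55 ± 0.13 (adjusted p = 0.0169) was the largest in H3, and leaving out any library other than control 2 and PA/OA 1 ended the call (0.0527 to 0.135).

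In H2A, Hist1h2ai had the lowest p, with 405, 388 and 393 CPM in controls, 317, 298 and 289 in PA/OA and 276, 169 and 225 with Ang(1-7). The groups did not overlap, and the change in PA/OA was −0.40 ± 0.07 (adjusted p = 0.0018, at most 0.0251 without any 1 library). With the length and GC offsets it was −0.20 and did not pass (adjusted p = 0.118). Hist2h2ac measured 949.5, 776 and 879 CPM in controls, 731, 659 and 619 in PA/OA and 597, 633 and 493 with Ang(1-7). No PA/OA library reached a control, and the change was −0.38 ± 0.08 (adjusted p = 0.00587). Leaving out control 1 or PA/OA 3 ended the call (0.0537 to 0.0758). Hist2h2aa2, all of whose 50-base windows occur in other genes, measured 459, 324 and 446 CPM in controls, 318, 295 and 252 in PA/OA and 223, 332 and 171 with Ang(1-7). PA/OA and control did not overlap, though control 2 came close. Its change of −0.51 ± 0.11 (adjusted p = 0.00808) was the largest in H2A, and it too depended on control 1 and PA/OA 3 (adjusted p up to 0.105 when either was left out). Hist1h2ak measured 528, 603 and 539 CPM in controls, 538, 444 and 427 in PA/OA and 396, 790.2 and 390.2 with Ang(1-7). PA/OA 1 lay within the controls, and the change of −0.25 ± 0.08 did not pass (adjusted p = 0.0878). Hist2h2ab had a positive value, with 76.0, 85.8 and 58.6 CPM in controls, 97.6, 69.6 and 76.2 in PA/OA and 62.9, 38.2 and 55.1 with Ang(1-7). Its control and PA/OA ranges overlap, and its change of 0.14 ± 0.14 did not pass (adjusted p = 0.67).

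Of the H2B genes 17 of 18 had a change below 0, and 5 passed. Hist2h2bb measured 1155, 1054 and 1105 CPM in controls, 927, 857 and 853 in PA/OA and 835, 834 and 775 with Ang(1-7). Its 3 groups did not overlap, and Ang(1-7) 2 lay beside its group mates. The change in PA/OA was −0.33 ± 0.06 (adjusted p = 0.00259, at most 0.0367 without any 1 library). The offsets for length and GC content gave −0.17, which did not pass (adjusted p = 0.101). Hist1h2bb measured 853, 697 and 708 CPM in controls, 717, 601 and 599 in PA/OA and 551, 462 and 500.2 with Ang(1-7). PA/OA 1 lay above 2 controls, and the change of −0.24 ± 0.08 did not pass (adjusted p = 0.101). Hist1h2bp measured 31.4, 16.3 and 17.0 CPM in controls, 15.5, 12.9 and 11.2 in PA/OA and 12.01, 13.7 and 11.4 with Ang(1-7). Control 1 stood far above the other 8 libraries. The log2 change of −0.71 ± 0.25 was the largest of all members and did not pass (adjusted p = 0.115). Hist1h2be, at 9.39, 6.33 and 6.81 CPM in controls, 8.44, 6.44 and 8.15 in PA/OA and 5.39, 4.69 and 4.97 with Ang(1-7), had a change of 0.03 ± 0.31 (adjusted p = 0.978). With that SE, a change of the size seen in its class could not be told from none.

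Linker histone genes had a median log2 change of −0.28. Hist1h1d, with the lowest p of the class, measured 1933, 1726 and 1927 CPM in controls, 1667, 1475 and 1437 in PA/OA and 1379, 1004 and 1165 with Ang(1-7). The 3 groups did not overlap, and the change in PA/OA was −0.29 ± 0.06 (adjusted p = 0.0113). The call was lost on leaving out control 1, PA/OA 3 or control 3 (0.058 to 0.0991). Hist1h1c measured 1552, 1494 and 1714 CPM in controls, 1599.5, 1290.0 and 1213 in PA/OA and 1161, 699.5 and 1012 with Ang(1-7). PA/OA 1 lay among the controls, and the change of −0.22 ± 0.08 did not pass (adjusted p = 0.126), while all Ang(1-7) libraries lay lower still. Hist1h1a measured 142, 104 and 143 CPM in controls, 106, 99.6 and 96.7 in PA/OA and 91.6, 122 and 81.3 with Ang(1-7). Control 2 lay within the PA/OA range, and the change of −0.37 ± 0.12 did not pass (adjusted p = 0.0664).

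Histone mRNAs are short, and short transcripts of other genes were also lower in PA/OA. Among other genes under 600 bases the median log2 change was −0.14 (109 genes, 10.1% called lower), and among those over 4000 bases it was 0.13 (1724 genes, 0.464% called lower). Histone medians lay below those of other genes at each length: the 38 under 600 bases had a median of −0.37, the 11 of 600 to 1000 bases −0.36 (other genes −0.13), and the 10 of 1000 to 2000 bases −0.35 (other genes −0.06). Hist1h1d, whose matched transcript has 7425 bases, is the single member over 4000 bases and had a change of −0.29. Of those bases 4884 lie after the stem-loop, near which an mRNA of this kind would end. In Hist4h4 this holds for 2445 of 2863 bases. Lengths here and in the offsets are those of matched transcripts, so a dependence on the length of the mature mRNA was not tested. Within the members, the change did not follow transcript length (r = 0.01, Spearman rho = −0.05), GC content (r = −0.004) or control level (r = −0.02) over the 64 genes, which share libraries. With offsets for length and GC content, 15 of 64 were called where 2.78% of all genes were called lower, and the median was −0.23 (all genes −0.04).

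**Figure D3:**
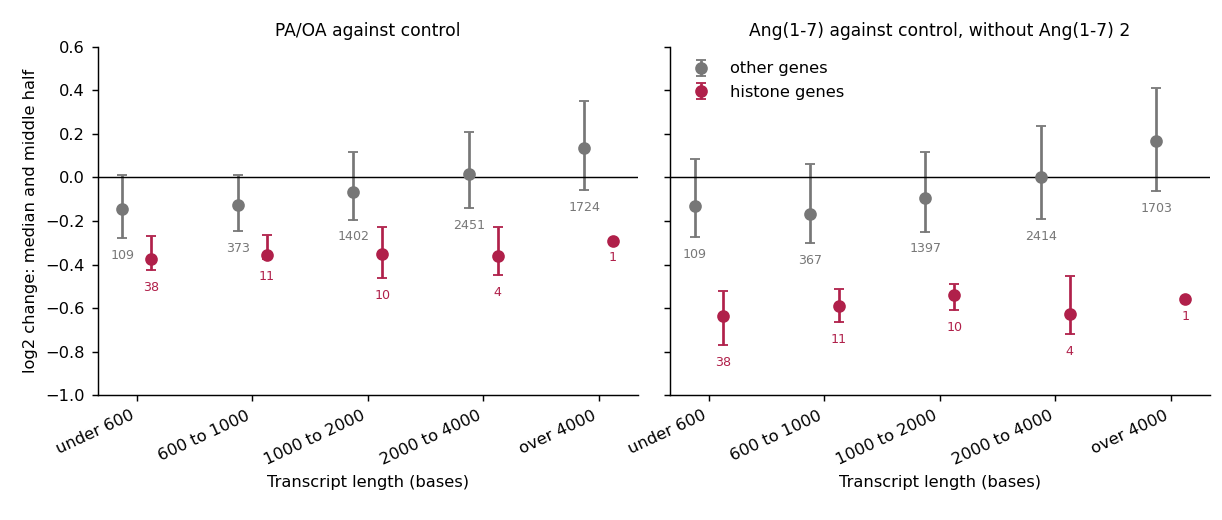
Median log2 change, with bars from the 25th to the 75th percentile, by transcript length for histone genes and all other genes, with the number of genes under each point, in PA/OA against control (left) and in Ang(1-7) against control without Ang(1-7) 2 (right). Lengths are those of the matched transcripts, which can run past the stem-loop. Histone medians lie between −0.29 and −0.37 in PA/OA against control at every length, while those of other genes run from −0.14 to 0.13.

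Back-to-back genes that share a promoter had changes in 8 of 9 pairs that were at most 0.26 apart on the log2 scale. Pairs without a shared promoter were not compared. Changes of the members lie close together in any case: for the 38 under 600 bases the 25th to 75th percentile ran from −0.42 to −0.27. Hist1h2ah and Hist1h2bk changed by −0.38 and −0.44, and Hist1h2ai and Hist1h2bl by −0.40 and −0.22. The pair furthest apart was Hist1h2ao and Hist1h2bq, at 0.09 and −0.39, a difference of 0.48. Neither of those 2 passed the test, and both share most of their sequence with other members. Over the 64 genes, a median of 53.0% of 50-base windows of the transcript were found in another gene, from 0 to 100%. In the 12 genes with no more than 20% of windows shared, 6 fell, with a median of −0.30, and in the 27 with more than 60% shared, 13 fell, with a median of −0.39. The 44 genes with a stem-loop had a median of −0.37 and 25 called. By cluster, 25 of 52 Hist1 genes and 6 of 10 Hist2 genes fell, with medians of −0.32 and −0.42. Over all members 32 of 64 fell, where 2.24% of all genes were called lower. Differences between these groups of members were not tested.

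Ang(1-7) 2 divided histone counts among the genes unlike any other library. H3 gave 17.5% of its histone counts, against 13.5% to 15.1% in the other 8 libraries. Set against the mean log2 level of Ang(1-7) 1 and 3, its 64 ratios ranged from 0.219 for Hist1h2ae to 2.202 for Hist1h2br. Hist1h4j measured 352, 77.3 and 313 CPM in Ang(1-7) 1 to 3 and 426 to 435 in PA/OA. Hist1h2ak, by contrast, measured 790.2 CPM there against 396 and 390.2. The class sum of Ang(1-7) 2 was 1.006 times that of its mates for H1, 1.02 for H2A, 1.08 for H2B, 1.27 for H3 and 0.885 for H4. The SD of the log2 ratios was 0.80 over the members of this library and 0.51 over 2081 other genes above the level of the lowest members, beside 0.15 to 0.22 over members in the 6 control and PA/OA libraries. The ratio did not follow the share of windows found in other genes (r = 0.10), length (r = 0.07) or GC content (r = −0.02). Hist1h1c, with 8.54% of its windows shared, was at 0.646 times its mates.

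**Figure D4:**
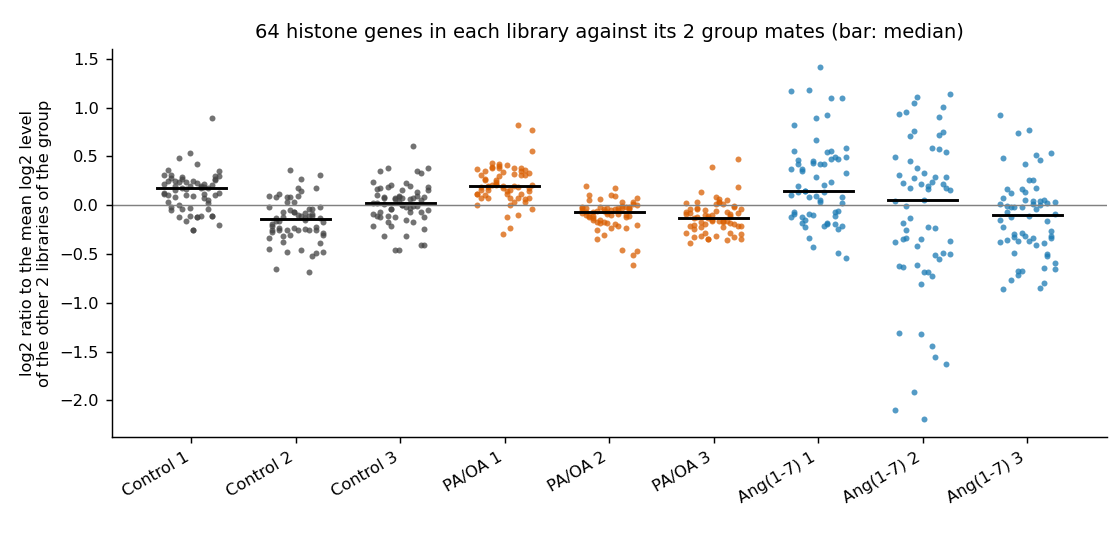
Log2 ratio of each histone gene in a library to the mean log2 level of the other 2 libraries of its group, with 1 point per gene and a bar for the median. Points of Ang(1-7) 2 run from −2.19 to 1.14, and those of Ang(1-7) 1 and 3 spread as well because Ang(1-7) 2 is among their mates.

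In Ang(1-7) against PA/OA, the comparison of peptide-treated with untreated cells under fatty acids, 0 of 64 histone genes were called, as were 0.0% of all 9261 genes tested with edgeR. An unadjusted p under 0.05 was found for 18 members and 2.55% of all genes, and DESeq2 called 0. That number of members depended on single libraries: it was 2 without PA/OA 1 (1.89% of all genes), 12 without PA/OA 2 (2.68%), 10 without PA/OA 3 (2.12%), 29 without Ang(1-7) 1 (7.26%) and 7 without Ang(1-7) 3 (3.01%). The median log2 change of the members was −0.26, beside −0.01 over all genes, and 52 of 64 were below 0 (50.9% of all genes). In 26 genes each Ang(1-7) library lay below each PA/OA library (6.37% of all genes), and in 1, Hist2h2be, each lay above (4.6% of all genes), with 36.9, 44.2 and 41.7 CPM against 30.0, 36.3 and 34.4. Without Ang(1-7) 2, 61 of 64 were below 0 with a median of −0.26, and 0 were called (37 at an unadjusted p under 0.05, as were 3.58% of all genes). The remaining Ang(1-7) libraries lay below each PA/OA library in 41 genes (10.9% of all genes) and above each in 1 (share of all genes not given here). Hist1h2ao had the largest change, −1.003 ± 0.271, from 98.8, 55.5 and 60.2 CPM in PA/OA to 44.0, 37.4 and 25.6. It did not pass (adjusted p = 0.965), and the value without Ang(1-7) 2 was −1.03. The median of other genes differed by GC content: it was −0.24 in the 369 over 60% GC and 0.06 in the 2247 under 45%. For histone genes it was −0.31 (28 genes) and −0.34 (3 genes). With offsets for length and GC content the median of the members was −0.10 (all genes 0.06) and 38 of 64 were below 0. The share of all genes below 0 with the offsets is not given here.

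In Ang(1-7) against control, the median log2 change was −0.64, a ratio of 0.643, and 63 of 64 genes were below 0 (48.4% of all genes). In edgeR's test 0 were called (0.0% of all 6134 genes were called lower), 44 had an unadjusted p under 0.05 (14.9% of all genes), and the lowest adjusted p of a member was 0.0559. DESeq2 called 35 lower (1.4% of all genes), and a fit of all 9 libraries called 23 (0.547%). Without Ang(1-7) 2, 56 of 64 were called lower and 0 higher, where 4.96% of all genes were called lower, and the median was −0.59. Without Ang(1-7) 1, 7 were called (0.114%). In the fits without Ang(1-7) 3 and without each control in turn, 0 were called. Without Ang(1-7) 2 all 13 H4, all 5 H1, 14 of 16 H2A, 14 of 18 H2B and 10 of 12 H3 genes passed, and the 8 that did not were Hist1h2ad, Hist1h2be, Hist1h2bp, Hist1h3b, Hist2h2ab, Hist2h2be, Hist2h3c1 and Hist3h2ba. In that fit Hist2h2aa2 fell by 1.06 ± 0.13 on the log2 scale, Hist4h4 by 0.75 ± 0.11, Hist1h3e by 0.68 ± 0.08, Hist1h1d by 0.56 ± 0.07 and Hist2h2bb by 0.46 ± 0.06. Both other libraries lay below every control in 60 genes (20.8% of all genes), and all 3 did in 45 (13.3%). With offsets for length and GC content 1 was called (0.0163%) and the median was −0.30 (all genes 0.01). Other genes under 600 bases had a median of −0.13 without Ang(1-7) 2, and the 38 histone genes of that length −0.64. In the same fit other genes over 60% GC had a median of −0.16, and the 28 such histone genes −0.67. Over the 64 members the change in that fit correlated with GC content (r = −0.31) and with the share of windows found in other genes (r = −0.38). This comparison shares its controls with that of PA/OA, so the 2 sets of values are not independent.

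**Figure D5:**
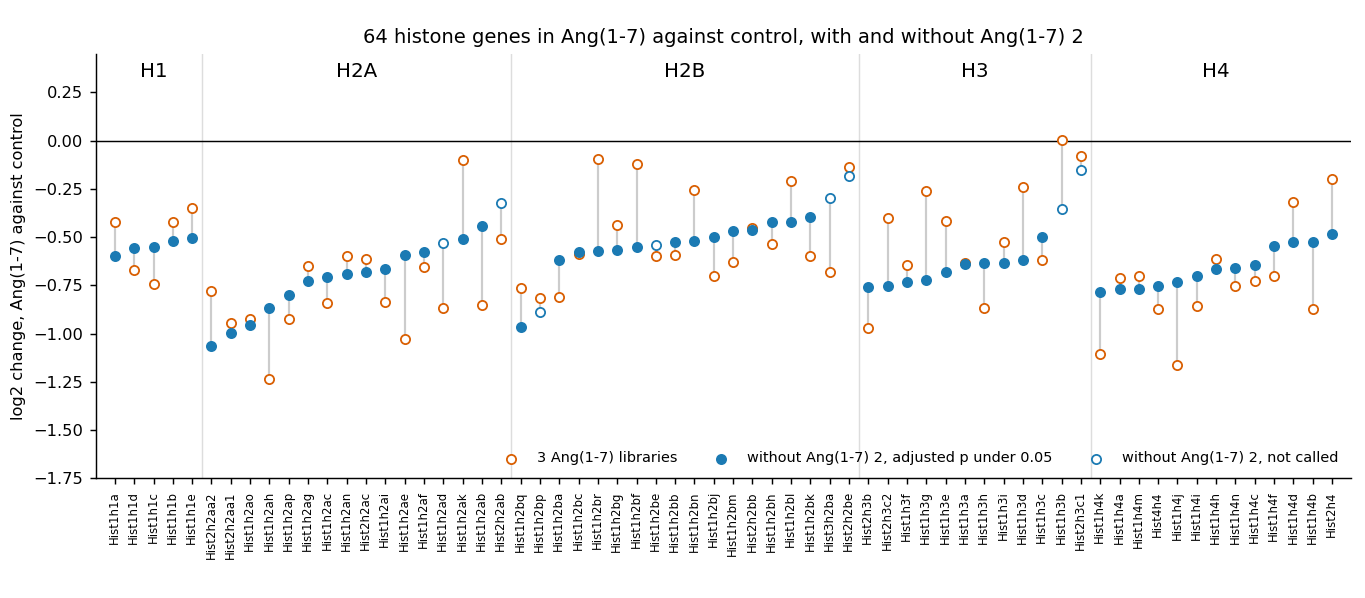
Log2 change in Ang(1-7) against control of each histone gene with all 3 Ang(1-7) libraries (orange) and without Ang(1-7) 2 (blue, filled where the adjusted p was under 0.05). Without that library the 64 values lie between −1.06 and −0.15, and 56 are filled.

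Genes that make and use histone mRNA or replicate DNA had few calls in PA/OA against control. Of all genes, 2.24% were called lower and 2.82% higher there, with 4.17% lower by DESeq2 and 2.78% with the length and GC offsets. Lists of this size would hold few calls at those shares, so no contrast with the histone genes can be drawn from the counts. For list counts at an unadjusted p under 0.05 the share of all genes is not given here, so those counts have no background. Of 20 measured genes of histone mRNA transcription, 3′ processing and decay, 0 were called in edgeR's test (1 at an unadjusted p under 0.05, and DESeq2 called Coil, the coilin gene of Cajal bodies), with a median log2 change of −0.05. Slbp, the stem-loop binding protein gene, measured 44.8, 59.1 and 50.3 CPM in controls, 50.2, 42.7 and 45.1 in PA/OA and 44.4, 57.0 and 44.4 with Ang(1-7). Its groups overlap (−0.16 ± 0.14, adjusted p = 0.578). Npat, at 1.66 to 3.57 CPM in controls and 2.21 to 6.01 in PA/OA, was too low for a statement. Of 35 genes of DNA replication 1 fell and 0 rose, with a median of −0.07, and of 26 mitotic genes 0 were called (3 at an unadjusted p under 0.05, 0 by DESeq2), with a median of −0.09. Pcna, the replication clamp, measured 972, 1055 and 1012 CPM in controls and 972, 911 and 974 in PA/OA, a change of −0.09 ± 0.06 (adjusted p = 0.438). The gene that fell was Rpa3, a subunit of the single-strand DNA binding complex (−0.46 ± 0.13, adjusted p = 0.0429). Of 22 genes of G1 progression and arrest 2 rose and 0 fell, Cdk6, a G1 kinase (0.30 ± 0.08, adjusted p = 0.0301), and Foxm1, a transcription factor of mitotic genes (0.41 ± 0.12, adjusted p = 0.0463). Mki67 and Cdkn1a, at 1.13 to 4.13 and 1.13 to 5.78 CPM in controls and PA/OA, were near the lower end of the table. Rpa3, Cdk6 and Foxm1 each kept their call in 1 of the 6 fits that left out a library (adjusted p up to 0.249) and none passed with the length and GC offsets (−0.34, 0.03 and 0.27). For the G1 list DESeq2 called 2 higher and 4 lower (Ccng1, Cdk4, Cdkn2a and Cdkn2c), and the offsets gave 0 higher and 3 lower (Ccng1, Cdk4 and Cdkn2c), so the direction of its calls turned with the setting. For DNA replication the offsets gave 2 lower, Mcm2 and Rfc2, and for mitosis 1, Cdk1.

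Histone variants and chaperones held some of the lower genes, where 2.24% of all genes were called lower (2.78% with the length and GC offsets, 4.17% by DESeq2). Of 7 measured replication-independent variants 2 fell and 0 rose, with a median of −0.15. H2afz, the H2A.Z gene, measured 578, 576 and 513 CPM in controls, 483, 456 and 473 in PA/OA and 470.1, 397 and 415 with Ang(1-7). The treated libraries all lay below the controls (−0.24 ± 0.07 in PA/OA, adjusted p = 0.0439). H2afj, another H2A variant gene, changed by −0.38 ± 0.09 (adjusted p = 0.0227). H3f3a, which encodes H3.3, measured 991, 946 and 960.4 CPM in controls and 865, 859.5 and 914 in PA/OA, and its change of −0.14 ± 0.06 did not pass (adjusted p = 0.189). H3f3b, the other H3.3 gene, and H1f0, a linker variant of resting cells, had values of 0.10 ± 0.19 and −0.07 ± 0.06 and did not pass either. Of 22 chaperone and deposition genes 2 fell and 0 rose, with a median of −0.02. Nasp, a chaperone of H1 and H3-H4, measured 63.4, 66.2 and 74.6 CPM in controls and 50.4, 43.8 and 52.3 in PA/OA (−0.48 ± 0.13, adjusted p = 0.0329), and Npm3 changed by −0.32 ± 0.09 (adjusted p = 0.0382). H2afz, H2afj and Npm3 kept their calls in 2 of the 6 fits that left out a library and Nasp in 1 (adjusted p up to 0.18). With the length and GC offsets H2afj and Nasp passed, and H2afz (−0.19) and Npm3 (−0.24) did not. Cytosolic ribosomal protein genes, which are also short and abundant, fell in 19 of 75 cases and rose in 0, with a median of −0.16, and Rpl8 changed by −0.26 ± 0.05 (adjusted p = 0.00251) without losing its call in any of the 6 fits. With the offsets 5 of the 75 were called lower, among them Rpl8, and the median was −0.07. Of 10 high mobility group and related genes 0 were called in edgeR's test (4 at an unadjusted p under 0.05, and DESeq2 called Hmgb1), with a median of −0.10. The share of all genes at that unadjusted p is not given here, so the count of 4 has no background. Differences between these lists and the histone genes were not tested.

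In Ang(1-7) against control edgeR called 0 genes in each of these lists. At an unadjusted p under 0.05 there were 1 of 20 (histone mRNA transcription and processing) to 15 of 74 (ribosomal proteins), beside 14.9% of all genes. DESeq2 called H2afj and H2afx, Npm3 and Ubn2, Cdk6 and Cdkn2c, and 4 ribosomal protein genes, where it called 1.4% of all genes lower. Without Ang(1-7) 2, where edgeR called 4.96% of all genes lower, 4 of 7 histone variants fell (H1f0, H2afj, H2afx and H2afz, median −0.33), as did 33 of 74 ribosomal protein genes (median −0.23) and 0 of 20 genes of histone mRNA transcription and processing. In the same fit 3 of 22 chaperone and deposition genes fell (Mcm2, Npm3 and Set) and 2 rose, Supt16 by 0.23 ± 0.07 and Ubn2 by 0.58 ± 0.12 on the log2 scale. Mcm2, a subunit of the replicative helicase, was also the 1 of 34 DNA replication genes called, and Cdc20 and Cdk1, which drive mitosis, were the 2 of 27 mitotic genes called, both lower. Of 21 G1 genes Cdk6 rose and Cdkn2c, an inhibitor of G1 kinases, fell, and of 11 high mobility group and related genes Hmgb1 fell. Pcna measured 905, 1548 and 907 CPM with Ang(1-7), so Ang(1-7) 2 alone stood above the controls.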

How the data were processed

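Total RNA of 9 AML12 samples was measured, with groups and replicate numbers taken from the labels. The authors deposited 3 tables of whole-number read counts per RefSeq transcript, 1 for each pair of groups, which also hold a log2 fold change and a p-value per transcript, per the file headers. Neither of these columns was used. Per the submitters' processing notes, reads went through bcl2fastq, HISAT2 (2.2.5) and HTSeq (0.11.2) with hg19 named as build, although the rows are mouse transcripts. The handling of reads that map to several genes is not given in the sources used here, so near-identical histone genes can share or lose reads. A transcript listed in more than 1 table had equal counts for a sample, but gene sums can differ because the tables list different transcripts.

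Counts were summed per gene symbol and tested in each pair's own table, with 6213, 9261 and 6134 genes, by edgeR 4.0.16 in R 4.3.3 (filterByExpr, trimmed mean of M values, quasi-likelihood F test). Benjamini-Hochberg adjustment ran over every gene tested, with a threshold of 0.05. Biological coefficients of variation came to 22.4% (PA/OA with control), 44.3% (Ang(1-7) with PA/OA) and 30.7% (Ang(1-7) with control). Levels are CPM over the transcripts common to all 3 tables, and marker sums are CPM of a table's own total. The procedure was tested on simulated data with less spread between samples than these libraries have, so that test does not cover their noise.

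The members and lists were chosen with earlier results of these data known. Values in every sample are given, per class, for the 2 genes of highest mean, those of largest change and lowest p in PA/OA against control, and the largest change against the class median. For each list the rule gave up to 3 genes of lowest p and 9 fixed genes, and some of these are in the counts only. Members named outside the rule, for their values in Ang(1-7) 2 or a shared promoter or for a missing call, were chosen after those values were seen. Alternatives were DESeq2 1.42.0, other scalings and filters, curated or common transcripts, a fit of all 9 samples, offsets for length and GC content (mgcv 1.9.3), a replicate block and leaving out each library.

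Transcripts came from GENCODE M21 and promoters from RefSeq on GRCm38.p6.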

Additional observations from a re-analysis of the deposited data

How the results depend on the processing

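Histone genes called in PA/OA against control numbered 32 as reported, 0 in a fit of all 9 samples on common transcripts, 15 with offsets for length and GC content, 14 with those offsets and a replicate block, and 8 to 48 when each library was left out. In Ang(1-7) against control 0 were called as reported, 35 with DESeq2, 23 in the fit of all 9 samples, 1 with curated transcripts, 1 with the length and GC offsets, and 0 to 56 when each library was left out. The median change of the members with the length and GC offsets was −0.10 in Ang(1-7) against PA/OA (−0.11 with the replicate block as well) and −0.30 in Ang(1-7) against control (−0.31). For the replicate block and the curated transcripts the share of all genes called was not computed, so those counts have no background. The cause of these shifts was not tested. Fits that left out a library also had fewer samples, and the part of that in the shifts was not tested either.

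Changes of sign were followed for single named genes, none of which had passed as reported in that comparison. In Ang(1-7) against control 63 of 64 members were below 0 as reported and 53 with the length and GC offsets. In PA/OA against control, Hist2h2ab was at −0.022 to 0.27 when each library was left out, and Hist1h2be was at −0.019 with the length and GC offsets, −0.011 with the block added, and −0.081 to 0.22 when each library was left out. Mki67 ranged from −0.49 to 0.31 when each library was left out. In Ang(1-7) against control, Hist1h2ak was at 0.81 with the offsets, 0.57 with the block added, and −0.51 (called, without Ang(1-7) 2) to 0.072 when each library was left out, and Hist2h3c2 was at 0.039 with the offsets.

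Over all genes tested, the deviations of same-numbered samples correlated at −0.04 to 0.03, so the replicate numbers showed no pairing there. Pairing was not checked for the histone genes alone. Their summed level was highest in replicate 1 of each group (29710, 25021 and 20304 CPM). With the number as a block, 33 histone genes were called in PA/OA against control, a count without the share of all genes beside it.

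Members of low level, such as Hist1h2be and Hist2h3c1, varied between libraries of a group, with 306 to 551 counts of Hist2h3c1 in controls. Of 32 calls, 8 held without each of the 6 libraries.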
